A study of Mus musculus with 4 samples.

Results

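The mitochondrial ribosomal proteins are the nuclear-encoded protein subunits of the ribosome that works inside mitochondria. They were taken here as the protein-coding genes of the mouse annotation GENCODE M21 (build GRCm38) whose symbol is Mrpl (large subunit) or Mrps (small subunit) followed by a number. This gave 78 genes, 49 of the large and 29 of the small subunit. Of these, 77 were among the 17476 genes of the count table and 76 (48 large, 28 small) passed the filter on low counts that left 14239 genes for testing.

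The mitochondrial ribosome translates the few mRNAs of mitochondrial DNA, all of which encode membrane subunits of the respiratory chain and ATP synthase. Its rRNAs are made in the organelle, while all of its proteins are translated in the cytosol and imported. Compared with a bacterial ribosome it has lost rRNA and gained proteins with no bacterial counterpart, and neutrophils, the main granulocytic relatives of the cells studied here, rely largely on glycolysis and hold few mitochondria.

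The study compared 2 libraries of Trem2 mutant cells (Trem2 mutant 1 and 3) with 2 libraries of wild-type (WT) cells from C57BL/6 mice (WT 1 and 2). Trem2 codes for a surface receptor by which myeloid cells bind lipids, and the kind of mutation is not given in the labels. In both groups, myeloid-derived suppressor cells (MDSCs, immature myeloid cells that restrain T cells) were differentiated from bone marrow in vitro and injected into male NRG mice, which lack lymphocytes. The recipients, 6 weeks old, had been challenged under the skin with TRAMP-C1, a line of mouse prostate cancer, and received the cells after 4 weeks. Tumours were removed 6 h later, and CD45+ CD11B+ GR1+ cells were sorted for rRNA-depleted total RNA sequencing. That gate does not separate injected cells from the recipient's own myeloid cells, and the labels do not state whether libraries of a genotype came from different animals or cultures.

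Libraries held 10306674 and 9820893 counted reads in the Trem2 mutant and 8037733 and 8077966 in WT. Trem2 itself had 22.9 and 21.0 CPM (reads relative to the library total, scaled with edgeR's TMM factors) in mutant libraries, against 44.2 and 52.2 CPM in WT libraries. Of the sort markers, Ptprc (CD45) averaged 1346 ± 24.7 CPM in the mutant and 1138 ± 34.1 CPM in WT (SD, n = 2 each), and Itgam (CD11B) 648 ± 7.15 CPM in the mutant and 425 ± 8.21 CPM in WT. Ly6g, the granulocytic GR1 antigen, was at 144 and 123 CPM in mutant libraries but 5.66 and 7.22 CPM in WT libraries. The libraries also differed by sex-linked genes, with 6928 and 9117 reads of Xist in the mutant and 2 and 3 in WT. The mutant libraries held Y-linked transcripts as well, with 90.7 and 96.3 CPM of Ddx3y, against 112 and 140 CPM in WT, and 6.11 and 5.91 CPM of Kdm5d, against 40.7 and 39.95 CPM in WT. Genotype and this difference in sex-linked transcripts cannot be told apart. Trem2 mutant 1 stood apart from the others by a noncoding gene, Gm42418, which took 13.9% of its reads, against 0.418% in Trem2 mutant 3 and 1.04% and 0.258% in WT 1 and WT 2.

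Transcripts of the mitochondrial ribosomal proteins were mostly less abundant in the Trem2 mutant, by a small amount. Summed over the 76 tested genes they came to 1036 and 1108 CPM in mutant libraries and to 1313 and 1266 CPM in WT libraries. The sums did not overlap between genotypes. The median log2 fold change, Trem2 mutant over WT, was -0.31, a change of -19.3%, where the median over all tested genes was -0.02. Of the 76, 71 (93.4%) had a log2 fold change below 0, against 52.7% of all tested genes. Both mutant libraries were below both WT libraries for 54 (71.1%), against 31.7% of all genes. Both were above both WT libraries for 2, Mrpl41 and Mrpl39, against 28.9% of all genes.

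Gene by gene, few of these differences passed the test. By edgeR's quasi-likelihood test with Benjamini-Hochberg adjustment over all 14239 genes at 0.05, 5 members fell (6.58%), against 3.6% of all genes, and 0 rose, against 9.55% of all genes. At an unadjusted p under 0.05, 22 members were lower, against 12.6% of all genes, and 0 were higher. DESeq2 called 1 member lower, against 1.6% of all genes by that tool. With limma-voom 4 were lower, against 3.34% of all genes. Both called 0 members higher. The median relative to that of all genes was -0.29 with TMM, RLE, upper-quartile scaling and scaling by library totals alone. Another scaling shifts all genes by nearly the same amount, so this agreement was built in and does not test the scaling. The count of calls depended on single libraries, for the members and also over all genes. With each library left out in turn, the members' median stayed below 0, between -0.37 and -0.26. In bulk samples, fewer cells of a type and less RNA per cell cannot be told apart.

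**Figure D1:**
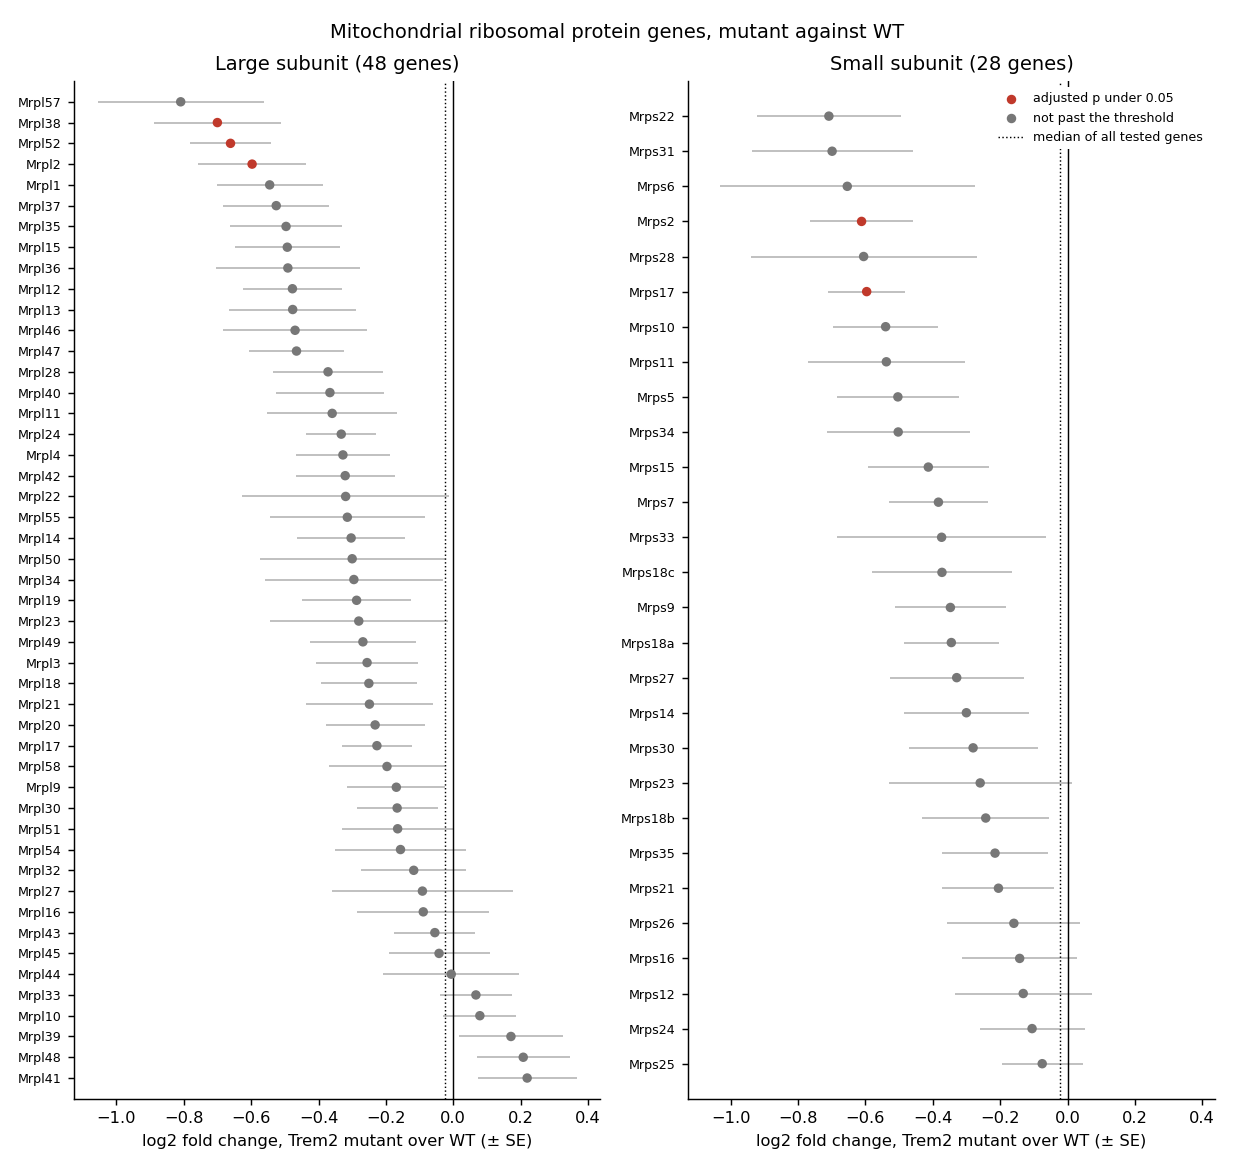
Log2 fold change, Trem2 mutant over WT, of each tested member (points) with its standard error (bars) and the median of all tested genes (dotted line), large subunit in the left panel and small subunit in the right; the members past the threshold are coloured. All 28 small-subunit points lie below 0, and 5 of the 48 large-subunit points lie above it.

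Mrpl52, a large-subunit protein with no bacterial homologue, had the lowest adjusted p. It had 23.0 and 20.6 CPM in mutant libraries, against 36.3 and 32.6 CPM in WT libraries. The mutant libraries were both well below the WT libraries, with no overlap. The means were 21.8 ± 1.67 CPM in the mutant and 34.5 ± 2.63 CPM in WT (SD, n = 2 each), a 1.58-fold fall (log2 fold change -0.66, SE 0.121, edgeR adjusted p = 0.0125). It was the one member that DESeq2 also called, with adjusted p = 0.0266, and its call was lost without WT 1, where edgeR's adjusted p was 0.116. The gene (ENSMUSG00000010406) lies on chr14:54426909-54429756, plus strand, and its exons overlap no other counted gene.

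Mrps17, the homologue of bacterial S17, an rRNA-binding protein of the small-subunit body, had 18.6 and 18.6 CPM in mutant libraries and 28.1 and 28.1 CPM in WT libraries. Library pairs of a genotype were closer here than read counting alone would usually give, with 155 and 173 reads in the mutant and 258 and 257 in WT before scaling. It fell 1.51-fold in the mutant (log2 fold change -0.60, SE 0.115, edgeR adjusted p = 0.0151) and lies on chr5:129715497-129722556, plus strand (ENSMUSG00000034211). Mrps2, the homologue of bacterial S2 at the junction of the head and body of the small subunit, had 10.5 and 11.3 CPM in mutant libraries, against 17.2 and 16.2 CPM in WT libraries. Its groups did not overlap. It fell 1.53-fold (log2 fold change -0.61, SE 0.152, edgeR adjusted p = 0.0375), from 88 and 105 reads in the mutant against 158 and 148 in WT, and lies on chr2:28468066-28471178, plus strand (ENSMUSG00000035772).

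Mrpl38, a protein of the central protuberance with no bacterial homologue, had 7.07 and 7.42 CPM in mutant libraries, against 12.6 and 10.9 CPM in WT libraries. Both mutant libraries were below both WT libraries. It fell 1.63-fold (log2 fold change -0.70, SE 0.188, edgeR adjusted p = 0.0483), the widest of the 5 calls, on 59 and 69 reads in the mutant against 116 and 100 in WT (ENSMUSG00000020775, chr11:116131817-116138868, minus strand). Mrpl2, the homologue of bacterial L2, which binds rRNA beside the peptidyl transferase centre, had 10.4 and 12.04 CPM in mutant libraries, against 16.1 and 17.95 CPM in WT libraries. Again the groups did not overlap. It fell 1.51-fold (log2 fold change -0.60, SE 0.160, edgeR adjusted p = 0.0483; ENSMUSG00000002767, chr17:46646229-46650139, plus strand). Mrps17 lost its call with DESeq2 (adjusted p = 0.0773), without WT 1 (0.112) and without WT 2 (0.0903). Mrps2 lost it with DESeq2 (0.187) and without Trem2 mutant 1 (0.0759), WT 1 (0.225) or WT 2 (0.127). The calls of Mrpl38 and Mrpl2 stood just inside the threshold, and both moved to an adjusted p of 0.0504 with RLE scaling. Mrpl38 also lost its call without any 1 of the 4 libraries (edgeR adjusted p between 0.0518 and 0.284) and Mrpl2 without Trem2 mutant 1 (0.119), WT 1 (0.154) or WT 2 (0.229).

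**Figure D2:**
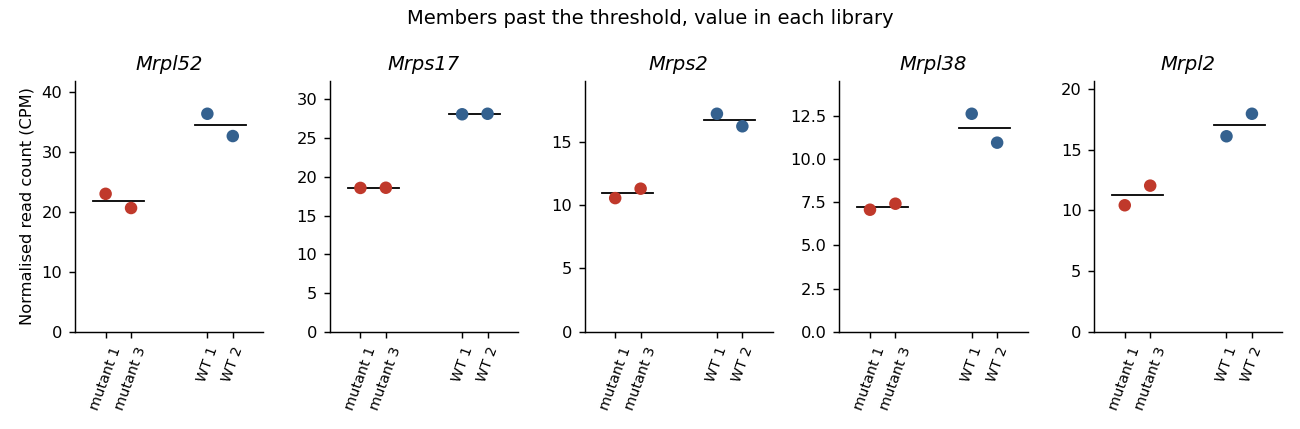
Normalised read count (CPM, linear axis from 0) of the 5 members past the threshold in each library, Trem2 mutant left of WT; points are libraries and lines are group means. In each panel both mutant points lie below both WT points.

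The starts of these genes are shown because nuclear genes for mitochondrial proteins often carry sites for NRF1, ETS factors such as GABP (NRF2) and YY1 close to the start. Windows from 200 bases before to 30 after the start, from RefSeq on GRCm38.p6, are printed 5′ to 3′ on the gene's strand for the called members in that table, Mrpl52 (chr14:54426709-54426938, plus), Mrps17 (chr5:129715297-129715526, plus), Mrps2 (chr2:28467866-28468095, plus) and Mrpl2 (chr17:46646029-46646258, plus). For Mrpl2, which has 3 windows in the table, the one nearest to its annotated start is given. Mrpl45 (chr11:97315516-97315745, plus), which with Mrps26 held the most matches in such a window (3 places), and Mrps11 (chr7:78782931-78783160, plus), which shares its start region with Mrpl46, stand beside them. Capitals mark letters matching CCGGAAG (ETS), AAGATGGC (YY1) or the NRF1 consensus, whose matches all stand in the Mrpl45 window, on either strand.
Mrpl52: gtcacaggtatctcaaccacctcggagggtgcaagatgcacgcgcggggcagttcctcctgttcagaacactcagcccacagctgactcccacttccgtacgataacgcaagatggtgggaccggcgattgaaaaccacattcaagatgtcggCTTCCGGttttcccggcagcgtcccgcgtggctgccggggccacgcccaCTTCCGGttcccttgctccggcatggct
Mrps17: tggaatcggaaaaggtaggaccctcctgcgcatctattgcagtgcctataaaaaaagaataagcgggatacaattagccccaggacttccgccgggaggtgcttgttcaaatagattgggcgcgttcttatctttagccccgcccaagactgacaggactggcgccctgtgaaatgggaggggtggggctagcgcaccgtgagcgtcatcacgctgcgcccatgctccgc
Mrps2: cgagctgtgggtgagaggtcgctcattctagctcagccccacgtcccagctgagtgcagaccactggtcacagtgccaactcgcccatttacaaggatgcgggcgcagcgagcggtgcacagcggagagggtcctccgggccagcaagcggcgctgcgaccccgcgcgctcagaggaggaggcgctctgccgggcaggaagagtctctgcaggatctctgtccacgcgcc
Mrpl2: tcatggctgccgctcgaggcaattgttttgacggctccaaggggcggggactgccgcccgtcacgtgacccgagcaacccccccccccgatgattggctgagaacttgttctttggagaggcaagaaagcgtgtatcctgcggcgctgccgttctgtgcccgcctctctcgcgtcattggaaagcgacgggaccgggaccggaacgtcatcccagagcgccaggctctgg
Mrpl45: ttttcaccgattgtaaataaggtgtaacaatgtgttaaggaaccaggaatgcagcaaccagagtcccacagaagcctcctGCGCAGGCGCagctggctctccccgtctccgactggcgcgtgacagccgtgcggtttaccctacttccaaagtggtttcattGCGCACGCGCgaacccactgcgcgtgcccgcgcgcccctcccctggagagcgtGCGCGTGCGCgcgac
Mrps11: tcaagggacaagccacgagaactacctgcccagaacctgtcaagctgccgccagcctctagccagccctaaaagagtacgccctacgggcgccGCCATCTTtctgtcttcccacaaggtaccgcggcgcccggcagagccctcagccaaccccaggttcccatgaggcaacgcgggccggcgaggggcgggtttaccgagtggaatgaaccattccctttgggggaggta
The Mrpl52 window held the ETS letters at 2 places on the opposite strand, and the windows of Mrps17, Mrps2 and Mrpl2 held none of the 3 motifs. The Mrpl45 window held the NRF1 letters at 3 places and the Mrps11 window the YY1 letters once on the opposite strand. A match is a description of the letters only.

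Across the members, 69 of 78 had a window from 250 bases before to 50 after the start in the RefSeq table, and the others were Mrpl4, Mrpl13, Mrpl15, Mrpl19, Mrpl38, Mrpl54, Mrps28, Mrps34 and Mrps35. The ETS letters stood in the windows of 26 of the 69 (37.7%), against 9.93% of all 27025 genes in the table. The NRF1 letters stood in 13 (18.8% against 5.19%) and the YY1 letters in 12 (17.4% against 3.19%). None of these strings of letters contains another, and each was counted on its own. At least 1 of the 3 was present in 43 members (62.3%), against 16.4% of all genes. In comparison, the E-box CACGTG was in 5 (7.25% against 8.09%) and the TATA box letters TATAAA in 5 (7.25% against 15.7%). Among protein-coding genes alone the shares were 13.4% for ETS, 7.44% for NRF1 and 3.64% for YY1.

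No test was run of the change by motif. The 42 tested members with at least 1 of the 3 motifs had a median log2 fold change of -0.25 with 1 call, and the 25 with none had -0.37 with 3 calls. By motif, the medians were -0.17 for the 13 with NRF1, -0.25 for the 25 tested with ETS and -0.34 for the 12 with YY1. By subunit, the ETS letters stood in 15 of 43 large-subunit and 11 of 26 small-subunit genes, the NRF1 letters in 10 and 3 and the YY1 letters in 6 and 6.

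The large subunit holds the peptidyl transferase centre and the exit tunnel. Its summed level was 742 and 770 CPM in mutant libraries, against 916 and 865 CPM in WT libraries. Its 48 tested genes had a median log2 fold change of -0.29, with quartiles of -0.47 and -0.16. Of these, 3 fell (6.25%, against 3.6% of all genes) and 0 rose (against 9.55%). At an unadjusted p under 0.05 by edgeR, 13 were lower, against 12.6% of all genes. Both mutant libraries were below both WT libraries for 32 (66.7%, against 31.7% of all genes) and above for 2 (against 28.9%). The groups overlapped for 14.

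Within the large subunit the roles below were grouped after the values had been seen. Around the catalytic centre, Mrpl2 fell, while Mrpl3, a homologue of L3, had 12.9 and 14.1 CPM in mutant libraries against 17.1 and 15.2 CPM in WT libraries (log2 fold change -0.26, SE 0.151, edgeR adjusted p = 0.298). The 4 genes there (Mrpl2, Mrpl3, Mrpl16 and Mrpl27) spanned -0.60 to -0.09. The stalk that recruits translation factors gave unlike values. Mrpl12, the L7/L12 homologue that in human cells also binds the mitochondrial RNA polymerase, had 11.98 and 12.7 CPM in mutant libraries against 17.7 and 16.6 CPM in WT libraries (log2 fold change -0.48, SE 0.146, edgeR adjusted p = 0.0703). Mrpl10, which anchors it, had 35.5 and 32.1 CPM in mutant libraries against 31.5 and 32.4 CPM in WT libraries (log2 fold change 0.08, SE 0.109, edgeR adjusted p = 0.669; -0.30 when scaled by library totals alone). The Mrpl12 groups did not overlap and the Mrpl10 groups did.

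The 7 genes of the exit tunnel (Mrpl4, Mrpl17, Mrpl22, Mrpl23, Mrpl24, Mrpl45 and Mrpl47) had a median log2 fold change of -0.32 and a range of -0.47 to -0.04, with 0 calls. Mrpl45, which holds the ribosome at the inner membrane, was nearest to 0. The 5 genes taken for the central protuberance (Mrpl18, Mrpl38, Mrpl40, Mrpl46 and Mrpl48) ranged from -0.70 for Mrpl38 to 0.21 for Mrpl48. Mrpl58 (ICT1), a peptidyl-tRNA hydrolase that became a ribosomal protein and can release stalled ribosomes, had 12.2 and 10.1 CPM in mutant libraries, against 12.4 and 13.1 CPM in WT libraries (log2 fold change -0.20, SE 0.174, edgeR adjusted p = 0.485).

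The extremes of the large subunit were both mitochondria-specific proteins. Mrpl57 had 11.98 and 6.88 CPM in mutant libraries, against 16.9 and 16.0 CPM in WT libraries. Its groups did not overlap, but the mutant libraries lay further from each other than the higher of them from the lower WT library, and it missed the threshold (log2 fold change -0.81, SE 0.246, edgeR adjusted p = 0.0692). It passed without Trem2 mutant 1 (log2 fold change -1.24, adjusted p = 0.00129), and without Trem2 mutant 3 it was -0.44 (adjusted p = 0.130). Mrpl41 had 15.8 and 16.4 CPM in mutant libraries, against 14.6 and 13.1 CPM in WT libraries (log2 fold change 0.22, SE 0.147, edgeR adjusted p = 0.356), and its value was -0.15 when scaled by library totals alone. The other large-subunit genes above 0 were Mrpl48, Mrpl39, Mrpl10 and Mrpl33, at 0.21, 0.17, 0.08 and 0.07. Mrpl33, the member with the most reads, had 66.8 and 75.8 CPM in mutant libraries and 63.4 and 72.8 CPM in WT libraries, which overlapped.

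The small subunit reads the mRNA at the decoding centre. Its summed level was 294 and 338 CPM in mutant libraries, against 398 and 400 CPM in WT libraries. All 28 tested genes had a log2 fold change below 0, with a median of -0.36 and quartiles of -0.54 and -0.24. Of these, 2 fell (7.14%, against 3.6% of all genes) and 0 rose (against 9.55%). At an unadjusted p under 0.05 by edgeR, 9 were lower, against 12.6% of all genes. Both mutant libraries were below both WT libraries for 22 (78.6%, against 31.7% of all genes), and the groups overlapped for 6.

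The largest log2 fold change of the small subunit was that of Mrps22, a mitochondria-specific protein whose human gene is mutated in mitochondrial disease. It had 4.91 and 5.80 CPM in mutant libraries, against 9.14 and 8.43 CPM in WT libraries. The groups did not overlap, yet it missed the threshold (log2 fold change -0.71, SE 0.215, edgeR adjusted p = 0.0688). Mrps25, another mitochondria-specific protein, was nearest to 0, with 39.2 and 47.9 CPM in mutant libraries and 44.6 and 47.3 CPM in WT libraries (log2 fold change -0.08, SE 0.121, edgeR adjusted p = 0.716). Of its exon bases, 69.8% are also exon of Nr2c2, so its reads may be split or shared. Near the decoding site and the mRNA channel, Mrps5, Mrps12 and Mrps24 (homologues of S5, S12 and S3) had log2 fold changes of -0.50, -0.13 and -0.11, with 0 calls.

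Some symbols do not match the place of the protein. Mammals have 3 homologues of bacterial S18. Mrps18c, which takes the S18 position, had 8.51 and 12.5 CPM in mutant libraries against 13.4 and 13.9 CPM in WT libraries (log2 fold change -0.37, SE 0.208, edgeR adjusted p = 0.270). Mrps18b, at another place on the small subunit, had 7.79 and 7.52 CPM in mutant libraries against 8.92 and 9.19 CPM in WT libraries (log2 fold change -0.24, SE 0.189, edgeR adjusted p = 0.428). Mrps18a, which sits in the large subunit, had 15.6 and 16.9 CPM in mutant libraries against 19.1 and 22.1 CPM in WT libraries (log2 fold change -0.35, SE 0.141, edgeR adjusted p = 0.149). All 3 paralogues were below WT in both mutant libraries, and none passed the threshold with all 4 libraries. Exons of Mrps18b and Mrps18c overlap other counted genes over 30.5% and 23.2% of their length, so their reads may be split or shared. Mrps18c was -0.66 and passed without Trem2 mutant 3 (edgeR adjusted p = 0.0463), and was -0.12 without Trem2 mutant 1 (0.764). Mrps30, also a large-subunit protein, had 10.8 and 15.3 CPM in mutant libraries against 16.4 and 15.3 CPM in WT libraries (log2 fold change -0.28, SE 0.191, edgeR adjusted p = 0.365). Mrps36, now known as part of the 2-oxoglutarate dehydrogenase complex and not of the ribosome, was under the filter with 3 and 4 reads in the mutant and 10 and 7 reads in WT. Mrpl53 was not analysed here.

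Placing Mrps18a and Mrps30 with the large subunit, leaving out Mrps36 and adding the 5 subunits with other names left the medians at -0.29 for the large and -0.36 for the small subunit. Those 5 were Dap3, the GTP-binding protein of the small-subunit head, Ptcd3, an RNA-binding repeat protein, Chchd1, Aurkaip1 and, in the large subunit, Gadd45gip1. Dap3 had 30.9 and 36.0 CPM in mutant libraries, against 41.1 and 44.6 CPM in WT libraries (log2 fold change -0.35, SE 0.117, edgeR adjusted p = 0.0871). The other four ran from -0.39 for Ptcd3 and -0.35 for Chchd1 to -0.25 for Gadd45gip1 and -0.24 for Aurkaip1. All 5 were below WT in both mutant libraries. By edgeR 0 passed the threshold and 1 had an unadjusted p under 0.05, and DESeq2 and limma-voom called 0. Without Trem2 mutant 3, Dap3 (-0.45, edgeR adjusted p = 0.0193) and Ptcd3 (-0.61, 0.0144) passed.

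The difference between the subunits was not tested, and their relative amounts overlapped between genotypes. The ratio of the small-subunit to the large-subunit sum was 0.396 and 0.439 in mutant libraries, against 0.434 and 0.463 in WT libraries, and these overlapped. Trem2 mutant 1 had the lowest ratio and WT 2 the highest. Within the mutant, library 1 was below library 3 for 54 of the 76 members, 32 of 48 large and 22 of 28 small, where 50.5% of all genes were. The median log2 ratio of mutant 1 over mutant 3 was -0.07 for the large and -0.22 for the small subunit. Within WT, library 1 was below library 2 for 27 of 76 members, with a median log2 ratio of 0.11 for the large and 0.00 for the small subunit. Without Trem2 mutant 3 the small-subunit median was -0.50, and leaving out WT 1, WT 2 or Trem2 mutant 1 gave -0.40, -0.35 and -0.28.

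Proteins with bacterial homologues were set beside proteins specific to mitochondria, with no test of the difference. Mrps18a and Mrps18b, which do not take the S18 position, were counted as mitochondria-specific. The 46 tested homologues had a median log2 fold change of -0.32 with 3 calls, and both mutant libraries were below WT for 37. The 30 tested mitochondria-specific proteins had a median of -0.27 with 2 calls, and both mutant libraries were below WT for 17. These are 80.4% of the homologues and 56.7% of the mitochondria-specific proteins, against 31.7% of all genes. Within the large subunit the median was -0.30 for 30 homologues and -0.23 for 18 mitochondria-specific proteins, and within the small subunit -0.40 for 16 and -0.30 for 12. Across the 76 members the log2 fold change had a Spearman correlation of 0.230 with mean CPM and -0.0385 with exon length, a description over genes that share the same 4 libraries.

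Although the assembled ribosome holds most of these proteins in equal numbers, their transcript levels per length spanned a wide range. Over the 77 genes in the table the mean level over all 4 libraries ran from 0.519 to 25.4 CPM per kb of exon. The median was 4.69 and the range 48.9-fold. The lowest, Mrps36, is not part of the ribosome. From Mrpl23, the next lowest, to Mrpl52 the range was 30.4-fold. Mrpl52 (25.4), Mrpl43 (20.3) and Mrpl10 (19.3 CPM per kb) were highest in the large subunit, and Mrpl23 (0.835), Mrpl15 (2.09) and Mrpl3 (2.23 CPM per kb) lowest. In the small subunit Mrps21 (18.2), Mrps24 (11.7) and Mrps18c (11.2 CPM per kb) were highest, and Mrps36 (0.519), Mrps35 (1.48) and Mrps6 (1.57 CPM per kb) lowest. The median level was 6.02 CPM per kb for the large and 3.44 for the small subunit. Cytosolic ribosomal proteins had a median level of 53.1 CPM per kb and nuclear subunits of oxidative phosphorylation 21.3 CPM per kb.

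**Figure D3:**
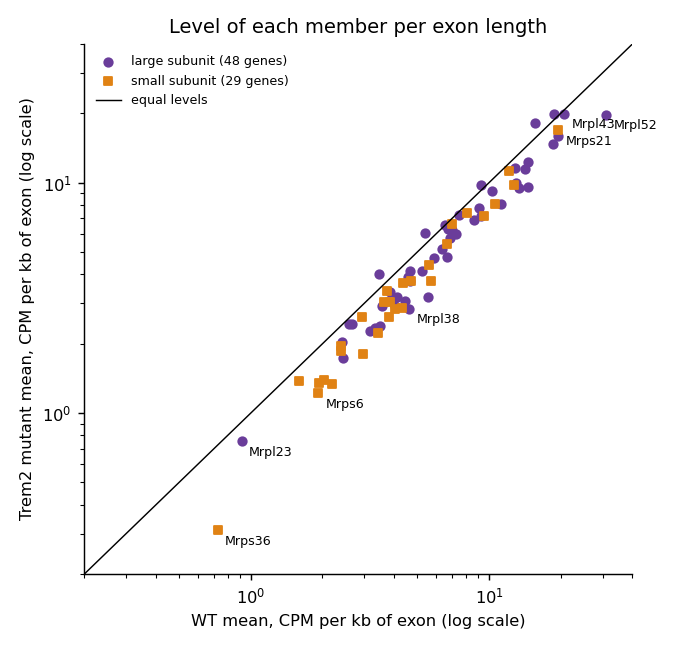
Mean level of each of the 77 members in the table in the Trem2 mutant (vertical axis) and in WT (horizontal axis), in CPM per kb of exon on log axes, with large-subunit genes as circles, small-subunit genes as squares and a line at equal levels. Most points lie below the line, along a range of 30.4-fold for the large and 35.1-fold for the small subunit. The small-subunit range starts at Mrps36, which is not part of the ribosome, and the next lowest is Mrps35 at 1.48 CPM per kb.

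Of those at the ends of the range, Mrpl52 alone was among the calls. Mrpl43, a mitochondria-specific protein, had 30.2 and 30.4 CPM in mutant libraries and 34.0 and 28.9 CPM in WT libraries, which overlapped (log2 fold change -0.05, SE 0.120, edgeR adjusted p = 0.799). Its log2 fold change was 0.07 without WT 1. Of its exon bases, 33.4% are also exon of Twnk, so its reads may be split or shared. Mrpl15, a homologue of L15, had 12.9 and 16.4 CPM in mutant libraries, against 21.2 and 20.3 CPM in WT libraries (log2 fold change -0.49, SE 0.156, edgeR adjusted p = 0.0784). Its groups did not overlap, as with Mrpl3, and it passed without Trem2 mutant 3 (-0.66, adjusted p = 0.0158). Mrpl23, the L23 homologue at the tunnel exit, had 3.59 and 3.76 CPM in mutant libraries and 4.90 and 4.05 CPM in WT libraries (log2 fold change -0.28, edgeR adjusted p = 0.517). In the small subunit, Mrps21 had 11.6 and 13.3 CPM in mutant libraries and 15.4 and 13.4 CPM in WT libraries (log2 fold change -0.21, edgeR adjusted p = 0.448). Mrps24 had 14.6 and 18.4 CPM in mutant libraries and 17.6 and 17.95 CPM in WT libraries (log2 fold change -0.11, edgeR adjusted p = 0.692; 0.06 without Trem2 mutant 1). Mrps21 stayed just below WT in both mutant libraries and Mrps24 overlapped. Mrps35 had 11.9 and 11.8 CPM in mutant libraries and 14.5 and 13.0 CPM in WT libraries (log2 fold change -0.22, edgeR adjusted p = 0.400). Mrps6, the homologue of S6, had 1.80 and 1.93 CPM in mutant libraries and 2.18 and 3.72 CPM in WT libraries (log2 fold change -0.65, SE 0.378, edgeR adjusted p = 0.287). Its standard error was the largest of all members.

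Many of these genes stand head to head with another gene. A protein-coding gene started within 1000 bases on the opposite strand for 33 of the 78 members (42.3%), against 17.2% of the 11514 tested protein-coding genes. Of the 30 tested partners that are not members, 23 had a log2 fold change below 0 (median -0.21), where 52.7% of all genes did. Among these partners 1 fell and 1 rose, against 3.6% and 9.55% of all genes. The one that fell was Ndufb5 of respiratory complex I, beside Mrpl47 (log2 fold change -0.42 for Ndufb5, edgeR adjusted p = 0.04999, and -0.47 for Mrpl47, adjusted p = 0.0685). The one that rose was Rab6a, a vesicle transport GTPase, beside Mrpl48 (log2 fold change 0.54 for Rab6a, edgeR adjusted p = 0.00592, and 0.21 for Mrpl48).

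Some pairs, chosen after their values were seen, had like values and others did not. Mrpl46 and Mrps11 share a start region in which their first exons overlap by 173 bases. Mrpl46 had 5.87 and 7.63 CPM in mutant libraries against 9.57 and 9.19 CPM in WT libraries, and Mrps11 had 5.15 and 6.23 CPM in mutant libraries against 9.25 and 7.33 CPM in WT libraries. Both pairs of groups were apart, with log2 fold changes of -0.47 (edgeR adjusted p = 0.184) and -0.54 (adjusted p = 0.168). Mrpl36 and Ndufs6 had -0.49 and -0.45. In contrast Mrpl2 (-0.60) stood beside Klc4, a kinesin light chain, at 0.38, and Mrpl57 (-0.81) beside Ska3, a kinetochore protein, at 0.45. Exons of 30 members in the table overlap another counted gene, 8 of them over more than 20% of their length, and whether counting used strand is not stated in the labels. Among the 46 tested members with no overlap, a subset taken after the data had been seen, the medians were -0.31 for the large and -0.37 for the small subunit, and all 5 calls were among them.

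The other lists for mitochondrial gene expression, described next, had medians from -0.40 for tRNA synthetases to -0.16 for assembly factors. Of 16 mitochondrial translation factors, 0 passed the threshold by edgeR, DESeq2 or limma-voom, 6 were lower and 1 higher at an unadjusted p under 0.05, and the median log2 fold change was -0.29. Slirp, which stabilises mitochondrial mRNAs, had -0.38 (edgeR adjusted p = 0.0629). Gfm2, which splits ribosomes after termination, had 0.27 (SE 0.0808, edgeR adjusted p = 0.0652; -0.10 when scaled by library totals alone). Both passed without Trem2 mutant 3 (edgeR adjusted p = 0.0351 for Slirp and 0.0476 for Gfm2). Of 25 assembly factors 2 fell (8%, against 3.6% of all genes), 0 rose (against 9.55%), and the median was -0.16. Ngrn, which supports the large-subunit rRNA, had 8.15 and 8.92 CPM in mutant libraries against 14.3 and 13.8 CPM in WT libraries (log2 fold change -0.71, SE 0.167, edgeR adjusted p = 0.0309). Mtg2, a GTPase of large-subunit assembly, had 12.6 and 11.8 CPM in mutant libraries against 17.4 and 18.9 CPM in WT libraries (log2 fold change -0.58, edgeR adjusted p = 0.0404). Both were well below WT in both mutant libraries, but neither passed with DESeq2 (adjusted p = 0.142 for Ngrn and 0.207 for Mtg2). Leaving out 1 library gave log2 fold changes of -0.76 to -0.64 for Ngrn and -0.64 to -0.51 for Mtg2. Neither kept its call with every library left out in turn.

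Of 17 mitochondrial tRNA synthetases 1 fell (5.88%, against 3.6% of all genes), 0 rose, and the median log2 fold change was -0.40. Aars2, for alanine, had 4.55 and 5.05 CPM in mutant libraries against 9.14 and 7.88 CPM in WT libraries (log2 fold change -0.82, SE 0.222, edgeR adjusted p = 0.0492), and no synthetase passed with RLE scaling, with DESeq2, or without WT 1, WT 2 or Trem2 mutant 1. Mars2, for methionine, had -0.78 (edgeR adjusted p = 0.0639; 0.0187 without Trem2 mutant 3). Lars2, for leucine, had 4554 and 560 CPM in mutant libraries and 759 and 252 CPM in WT libraries, an order that follows that of Gm42418. Of 9 tested genes that copy and transcribe mitochondrial DNA 1 fell (11.1%, against 3.6% of all genes). This was the RNA polymerase Polrmt, with 11.6 and 9.56 CPM in mutant libraries against 19.3 and 16.2 CPM in WT libraries (log2 fold change -0.75, SE 0.175, edgeR adjusted p = 0.0309). The list's median was -0.26, and the helicase gene Twnk, head to head with Mrpl43, had -0.55 (adjusted p = 0.148). Polrmt lost its place past the threshold without WT 1 or WT 2, or with DESeq2, where 0 genes of the list passed.

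Of 7 tested regulators of mitochondrial biogenesis 0 passed the threshold by edgeR, and their median log2 fold change was 0.02. Myc, which drives ribosome and mitochondrial genes in many cells, had 39.4 and 27.6 CPM in mutant libraries and 20.6 and 23.9 CPM in WT libraries (log2 fold change 0.59, SE 0.180, edgeR adjusted p = 0.0700). Pprc1, a coactivator of NRF1, had -0.28 (adjusted p = 0.210). Both depended on single mutant libraries. Without Trem2 mutant 3 they passed, at 0.85 for Myc (adjusted p = 0.000496) and -0.46 for Pprc1 (0.0201), and without Trem2 mutant 1 they were 0.32 (0.193) and -0.10 (0.649). The median of the list was -0.35 when scaled by library totals alone.

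Other large complexes made of nuclear gene products gave medians between those of the members and of all genes. Of 82 tested cytosolic ribosomal proteins 9 fell (11.0%) and 1 rose, against 3.6% and 9.55% of all genes. Their median log2 fold change was -0.16, with 67 below 0. Rplp0, of the cytosolic stalk, was the one that rose (log2 fold change 0.65, edgeR adjusted p = 0.00301), and Rps27l was among those that fell (-0.56, adjusted p = 0.00585). Of 79 tested nuclear subunits of oxidative phosphorylation 6 fell (7.59%) and 0 rose, with a median of -0.21 and 69 below 0. Uqcr11 of complex III (-0.79, edgeR adjusted p = 0.0101) and Ndufc2 of complex I (-0.61, adjusted p = 0.0159) led these. Lower calls among the cytosolic ribosomal proteins numbered 14 without Trem2 mutant 1, 18 without Trem2 mutant 3, 0 without WT 1, 1 without WT 2 and 5 with DESeq2. Those among the oxidative phosphorylation subunits numbered 20 without Trem2 mutant 3, 1 without WT 1, 0 without WT 2, 3 with RLE scaling and 1 with DESeq2. Scaled by library totals alone, 62 and 57 were lower.

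**Figure D4:**
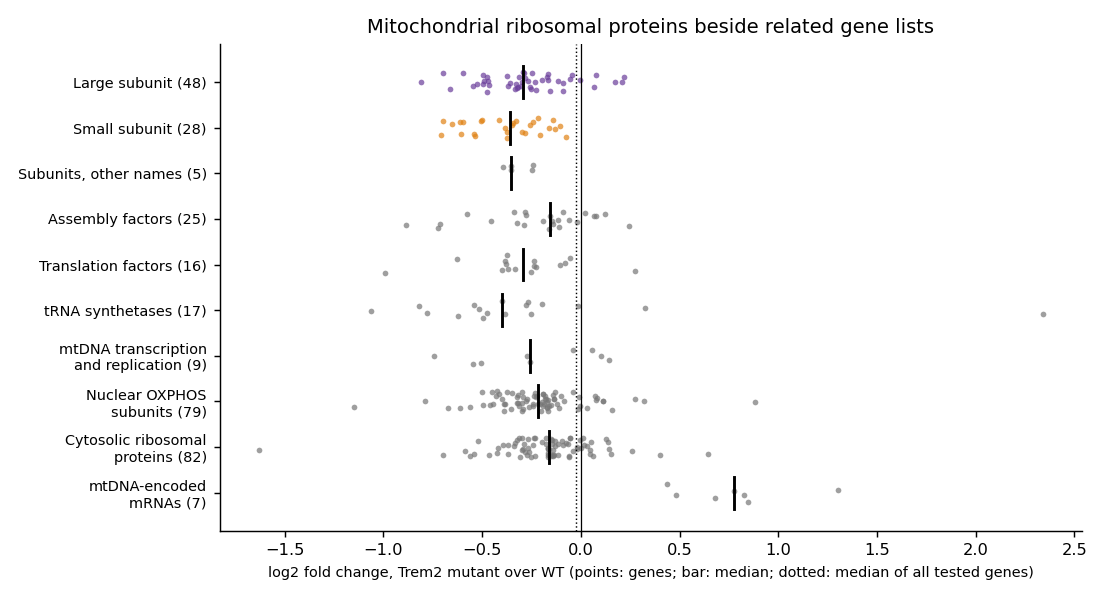
Log2 fold change, Trem2 mutant over WT, of each tested gene (points) and its median (line) in the members of each subunit and in the related lists. The nuclear lists for mitochondrial translation lie mostly below 0, and the 7 mRNAs of mitochondrial DNA lie above it.

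The mRNAs that the mitochondrial ribosome translates went the other way. All 7 tested mRNAs of mitochondrial DNA rose in the mutant, against 9.55% of all genes, with log2 fold changes of 0.44 to 1.30 and a median of 0.78 (0.41 with 3 calls when scaled by library totals alone). Their summed level was 6916 and 7442 CPM in mutant libraries, against 4533 and 4380 CPM in WT libraries. The mutant libraries were both higher, with no overlap. For mt-Cytb, of complex III, it was 1197 and 1253 CPM in mutant libraries against 713 and 652 CPM in WT libraries (log2 fold change 0.84, SE 0.100, edgeR adjusted p = 0.00204), and for mt-Nd4, of complex I, the log2 fold change was 0.83 (adjusted p = 0.00276). The other 6 of the 13 were not analysed here. Without WT 1 or WT 2, 4 of the 7 passed. The rRNAs mt-Rnr1 and mt-Rnr2 also rose (log2 fold changes 1.45 and 1.16, edgeR adjusted p = 0.00786 and 0.00995), though rRNA had been depleted and their level reflects that step too. Without WT 1 neither rRNA passed the threshold.

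Markers of cell types moved with genotype beside these values. Among all genes, 9.55% were called higher and 3.6% lower. The 14 tested granule genes, made by immature neutrophils, summed to 20590 and 14884 CPM in mutant libraries, against 2663 and 2479 CPM in WT libraries, and 12 of them rose. Of 12 mature neutrophil genes 10 rose, with sums of 23760 and 22458 CPM in mutant libraries against 7886 and 8630 CPM in WT libraries. Mutant libraries thus held far more neutrophil transcripts than WT libraries. Trem2 mutant 1 had the most granule transcripts, the lowest large-subunit and small-subunit sums and the most Gm42418 reads. Of the WT libraries, WT 1 had more granule transcripts, the higher large-subunit sum and a slightly lower small-subunit sum. A link between these was not tested. Monocyte and macrophage genes summed to 2399 and 1996 CPM in mutant libraries and 1859 and 1972 CPM in WT libraries. Of the 12, 6 were higher and 0 lower. The log2 fold change was below 0 for 3, each with an unadjusted p under 0.05 by edgeR. Ly6c2 alone had 378 and 282 CPM in mutant libraries, against 26.9 and 24.8 CPM in WT libraries.

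Eosinophil genes (5 of 5 tested higher, against 9.55% of all genes) summed to 159 and 198 CPM in mutant libraries against 73.1 and 72.2 CPM in WT libraries. DESeq2 called 4 of them. Ear1 had 0 reads in WT and passed the filter only through the mutant libraries, so its call adds no support. Fibroblast genes (4 of 6 higher) summed to 468 and 434 CPM in mutant libraries against 164 and 117 CPM in WT libraries. Tumour epithelial genes summed to 85.8 and 88.4 CPM in mutant libraries against 154 and 161 CPM in WT libraries. Most of this was Cdh1, at a mean of 119 CPM over the 4 libraries. Cdh1 was called lower (log2 fold change -0.88), and the other of the 2 tested genes had 0.23 and was not called. Lymphocyte genes stayed at 7.79 and 9.46 CPM in mutant libraries and 12.5 and 13.0 CPM in WT libraries, with 0 of 4 past the threshold. Cycling genes summed to 448 and 350 CPM in mutant libraries and 311 and 325 CPM in WT libraries, with 2 of 12 higher. The part of these cell type differences in the values of the mitochondrial ribosomal proteins was not tested.

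**Figure D5:**
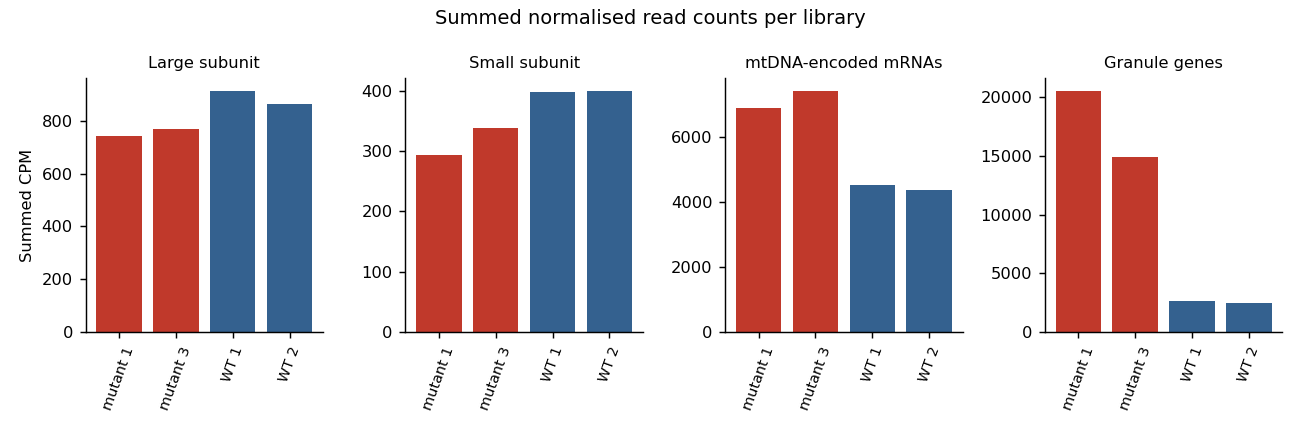
Summed CPM per library, Trem2 mutant left of WT, for the large subunit, the small subunit, the 7 tested mRNAs of mitochondrial DNA and the 14 granule genes (bars from 0, 1 bar per library). Both subunit sums are lower in both mutant libraries, and the other sums are higher.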

How the data were processed

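Per the labels, total RNA of the 4 libraries was depleted of rRNA and sequenced on a NextSeq 500. The authors deposited raw read counts per Ensembl gene. The submitters' processing notes name STAR 2.5.2a, FastQC, DESeq2 and the build GRCm38 (mm10). Not given in the sources used here are the tool that counted reads, its use of strand and its annotation. No gene in the table had fewer than 11 reads in all. Of the IDs, 17422 matched GENCODE M21. The column numbered 3 matched no label number and was used as a mutant library.

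Counts were filtered with filterByExpr, scaled with TMM and tested with edgeR 4.0.16 in R 4.3.3 (glmQLFit, glmQLFTest, two-sided, genotype as the only term, Benjamini-Hochberg over 14239 genes, threshold 0.05). The fit had 2 residual and 5.71 prior degrees of freedom and a biological coefficient of variation of 0.106. Standard errors are the log2 fold change over the root of F. Since separate cultures or animals are not stated, p-values reflect only how these libraries vary, which may be technical. Pairs of libraries differed by more than sampling noise (median ratio 6.20 in the mutant, 2.01 in WT). These ratios used library totals without TMM factors, so they are not on the scaling of the test. A floor of 3 reads was 0.359 and 0.322 CPM in mutant libraries and 0.326 and 0.328 CPM in WT libraries, covering counting error only.

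Alternatives were RLE, library totals and upper-quartile scaling, other filters, DESeq2 1.42.0, limma-voom (limma 3.58.1), the bias-adjusted form, leaving out 2330 noncoding and mitochondrial genes, and leaving out each library. The edgeR step was also tested on simulated data. Named were the called members, the 3 highest and lowest levels per kb and the extreme fold changes of each subunit, subunits of particular biology, and the genes with the lowest p of each list. The remaining genes named were chosen after their values were seen. The members and lists were chosen with earlier results of these data known.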

Additional observations from a re-analysis of the deposited data

How the results depend on the processing

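No alternative called a member higher. The count of members called lower was 3 with RLE scaling (1 large) and 49 with library totals alone (31 large, 18 small). It was 1 with DESeq2 (1 large, 0 small), against 5 with the TMM-scaled test. Of all genes, 3.33% were lower with RLE scaling, 30.7% with library totals alone, 1.6% with DESeq2 and 3.6% with the TMM-scaled test. With library totals alone the medians were -0.66 (large) and -0.72 (small), the median of all genes was -0.40 instead of -0.02, and 13.0% of calls over all genes were higher instead of 72.6%. Leaving out 1 library gave 0 to 14 members lower (0 to 7 large, 0 to 7 small), with medians of -0.35 to -0.23 for the large and -0.50 to -0.28 for the small subunit. The cause was not tested. Without Trem2 mutant 1, 2 of the 5 calls remained, and without Trem2 mutant 3, 4 remained. Upper-quartile scaling and leaving out noncoding and mitochondrial genes gave 7 members each, where 4.72% and 4.88% of all genes were lower. Limma-voom and no filter gave 4 each (3.34% and 2.74% of all genes). The stricter filter and the bias-adjusted form gave 5 each (3.6% and 3.61% of all genes). Between 66 and 76 members lay below 0 in each of these settings. Of 607 comparisons for 47 named genes, 522 kept direction and side of the threshold, 47 lost their call, 32 gained one and 6 changed sign. These were Gfm2 (-0.10), Mrpl10 (-0.30) and Mrpl41 (-0.15) with library totals alone, Mrpl43 without WT 1, and Mrps24 and Mrps25 without Trem2 mutant 1. Leaving out 1 library gave -0.17 to 0.068 for Mrpl43, -0.26 to 0.057 for Mrps24 and -0.21 to 0.071 for Mrps25. No paired analysis was possible because mutant columns are numbered 1 and 3 and WT columns 1 and 2, so the replicate block was not run. Members had few reads (8649 and 10318 in mutant libraries, 12082 and 11570 in WT libraries, over 77 genes), which limits single genes more than the sums.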
